A study of Saccharomyces cerevisiae with 23 samples.

Results

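Yeast glycogen metabolism was followed through 8 genes: the glycogenin genes GLG1 and GLG2, the glycogen synthase genes GSY1 and GSY2, the branching enzyme gene GLC3, the glycogen phosphorylase gene GPH1, the debranching enzyme gene GDB1 and the phosphatase subunit gene GAC1. They were chosen by their identifiers for these known roles, by a rule that uses no expression value. Earlier results of these data were known when the choice was made. All 8 were among the 6596 genes of the count table, and all 8 were among the 6111 genes with enough counts to be tested. RNA was sequenced from 23 libraries of budding yeast, Saccharomyces cerevisiae, to compare aneuploid populations, whose cells carry differing abnormal chromosome sets, with euploid ones. Tetrad dissection gave the aneuploid populations T1 and T2 and 1 euploid population, and a-selection gave the aneuploid populations A1, A2 and A3 and 1 euploid population. There were 3 libraries for each population and 2 for a haploid control, which is also euploid. For every group the labels give the strain BY4741, an overnight culture in rich YPD medium and a refresh of 4 h in YPD at 23 °C. They give no treatment, do not say how many founder cells a population had and name no chromosome as gained or lost.

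Libraries held 12719710 to 19327344 counts, and a member gene had 67 to 63353 counts in a library. Levels are given in CPM, counts brought to the same library total, after TMM scaling, which corrects for differences in library makeup. Of the 4 markers that the usual BY4741 genotype lacks (URA3, LEU2, MET17 and HIS3), LEU2 was at 18.6 to 376 CPM in the 7 populations and 0.0729 CPM in the haploid control. The 4 did not move alike. Against the haploid control, 2 were called higher and 2 lower in euploid tetrad. In euploid a-selection 1 was higher, 2 were lower and 1 was not called. Of all tested genes, 47.1% and 45.0% were called higher in these comparisons. The alpha mating-type gene STE3, which a cells do not use, had a mean of 234 CPM in T1 libraries, 287 in T2 libraries and 992 in euploid tetrad libraries, and of 7.46 CPM or less in each other group. No label ties the replicates of a group to separate cultures, so p-values cover only the scatter among libraries, and part or all of it may be technical. RNA was measured over whole populations, so fewer cells with a high level and less RNA per cell cannot be told apart.

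Glycogen is a branched glucose polymer that budding yeast stores when glucose runs low or growth slows, and draws on later. Glycogenin starts a chain by attaching glucose to itself, glycogen synthase lengthens the chain from UDP-glucose, and the branching enzyme adds the branch points. Glycogen phosphorylase and the debranching enzyme take the polymer apart, while Gac1 brings the protein phosphatase Glc7 to glycogen synthase and so favours its active form. Several of these genes are textbook targets of the stress transcription factors Msn2 and Msn4, which bind the stress response element.

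The DNA before the genes is shown because this element is short enough to be read by eye, and its part in the members' levels was not tested. The core AGGGG was searched on both strands in the 500 bases before each start codon, and matched at least once in 6 of the 8 members and in 34.1% of the 6000 protein-coding genes with a full window. At least 2 matches were found in 5 members (GLC3, GSY1, GSY2, GLG2 and GPH1) and in 8.13% of all these genes. GLC3 had the most, 3, at 374, 282 and 213 bases before the start codon, and GDB1 had 1. GLG1 and GAC1 had none, and each had 1 match of AGGGAT, the core of the post-diauxic shift element, which matched in 15.4% of all genes and in 2 members. No member had matches of both motifs, so none could overlap, and a match is a description of the letters, not a bound site. The windows below run from 400 to 101 bases before the start codon (R64, read from the reference genome, 5′ to 3′ on the strand of the gene), with matches of either motif in capitals. GLC3 has the most matches (chrV:132720-133019, plus strand), GPH1 had the largest fall among the tetrad aneuploids (chrXVI:860906-861205, plus strand), GLG2 departed from the others in its order of levels (chrX:156228-156527, minus strand), and GAC1 has no match in this window (chrXV:670342-670641, minus strand).
GLC3: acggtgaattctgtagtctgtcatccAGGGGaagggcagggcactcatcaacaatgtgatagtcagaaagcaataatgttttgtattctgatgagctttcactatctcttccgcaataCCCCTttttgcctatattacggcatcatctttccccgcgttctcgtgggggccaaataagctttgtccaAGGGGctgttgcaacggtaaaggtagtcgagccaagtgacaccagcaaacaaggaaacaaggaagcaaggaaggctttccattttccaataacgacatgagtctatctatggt
GPH1: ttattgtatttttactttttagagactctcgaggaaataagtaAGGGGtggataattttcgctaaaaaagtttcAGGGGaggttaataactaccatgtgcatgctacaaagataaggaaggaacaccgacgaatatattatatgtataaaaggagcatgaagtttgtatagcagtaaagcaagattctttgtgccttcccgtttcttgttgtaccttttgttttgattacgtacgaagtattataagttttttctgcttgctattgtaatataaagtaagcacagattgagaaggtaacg
GLG2: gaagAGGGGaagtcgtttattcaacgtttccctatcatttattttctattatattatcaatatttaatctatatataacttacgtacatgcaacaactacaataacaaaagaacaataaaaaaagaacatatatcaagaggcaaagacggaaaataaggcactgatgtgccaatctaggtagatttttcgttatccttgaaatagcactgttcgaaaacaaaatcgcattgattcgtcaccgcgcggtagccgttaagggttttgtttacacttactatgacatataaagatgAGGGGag
GAC1: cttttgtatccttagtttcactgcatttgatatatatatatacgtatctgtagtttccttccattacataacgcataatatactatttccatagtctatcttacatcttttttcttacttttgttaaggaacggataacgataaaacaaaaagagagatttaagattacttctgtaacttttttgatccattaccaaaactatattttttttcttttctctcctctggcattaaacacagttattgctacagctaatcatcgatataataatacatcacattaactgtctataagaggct

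Glycogen genes took a far larger part of the RNA in the 7 populations than in the haploid control, and a smaller part in most aneuploid populations than in their euploid population. Together the 8 genes held 1.05% of all counts in T1, 0.758% in T2 and 1.51% in euploid tetrad. They held 1.16% in A1, 1.08% in A2, 0.792% in A3 and 1.18% in euploid a-selection, and 0.0350% in the haploid control (means of 3 libraries, and of 2 for the haploid control). The ranges of the libraries of T1, T2, A2 and A3 lay below those of their euploid population, while those of A1 and euploid a-selection overlapped. Per kilobase of gene, GLC3 was the highest member in euploid tetrad at 1822 CPM per kb, before GPH1 at 1671, GSY2 at 1342 and GSY1 at 1330.0. GDB1 (532), GLG1 (271), GAC1 (217) and GLG2 (92.6) were lower on this scale. In the haploid control GSY1 was the highest at 86.0 CPM per kb and GAC1 the lowest at 2.19.

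**Figure D1:**
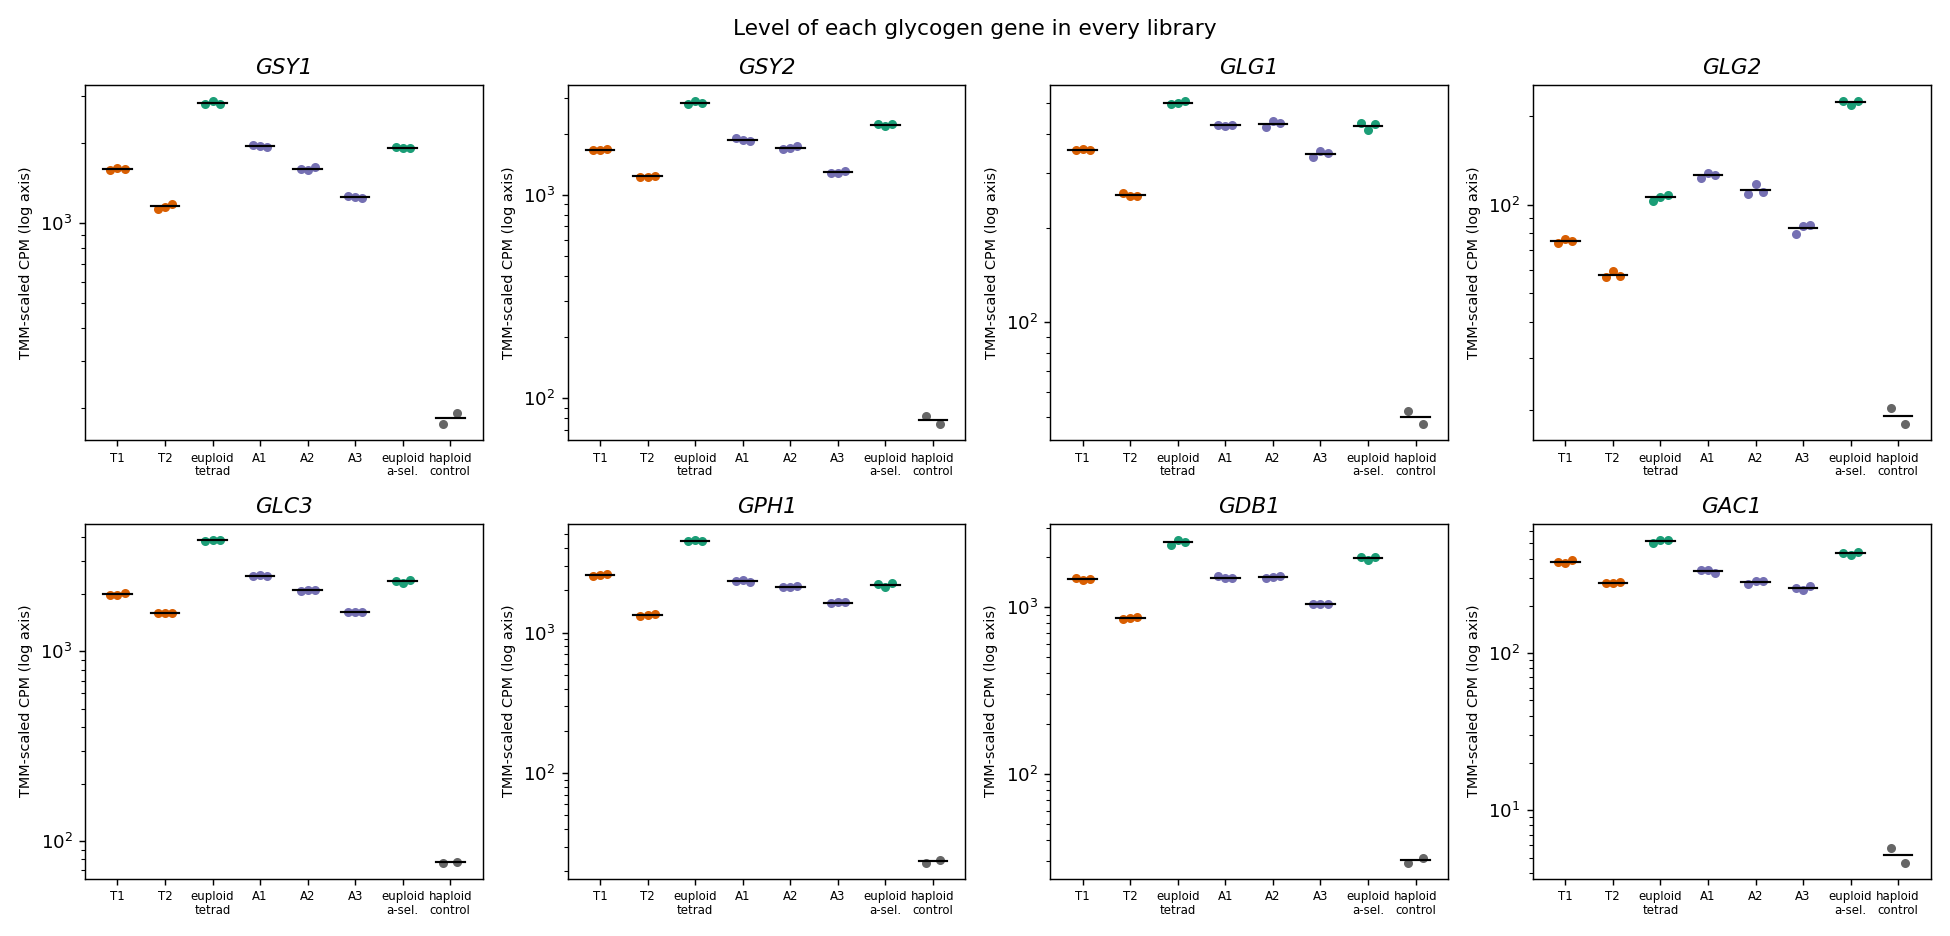
Level of each member in every library, as TMM-scaled CPM on a log axis, with 1 point per library and a line at the mean of each group. The haploid control lies below every other group in each of the 8 panels, and euploid tetrad is the highest group for all members but GLG2, which is highest in euploid a-selection.

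Every member fell in the tetrad aneuploids, and every member fell in A3, but A1 and A2 changed less. In T1 all 8 were lower than in euploid tetrad, with log2 fold changes from -0.95 to -0.43 and a median of -0.75, where 43.0% of all tested genes were called lower and the median of all genes was -0.04 (edgeR quasi-likelihood test, adjusted p under 0.05). Fold changes of a gene are on the log2 scale here and below, with ± their SE. In T2 all 8 were lower, from -1.75 to -0.88 with a median of -1.24, where 44.4% of all genes were lower. Scaled on total counts alone, which moved the median of all genes by more than 0.1, all 8 stayed lower but nearer to 0, at -0.67 to -0.16 in T1 and -1.36 to -0.49 in T2. For the mean of T1 and T2, all 8 were lower with a median of -1.02 (background 44.8% lower). In A3 all 8 were lower, with a median of -0.68 (background 39.7% lower). In A2, 7 were lower and GLG1 was not called, with a median of -0.32 (background 35.9% lower). In A1, 4 were lower (background 35.7%), GLC3 and GPH1 were higher (background 36.6%), and GSY1 and GLG1 were not called, with a median of -0.12. Scaled on total counts alone, A1 had 4 members higher and 4 lower, and A2 had 2 higher and 5 lower. The median of all genes then stood at 0.07 in A1 and 0.12 in A2, and the share of all genes called was not taken. For the mean of A1, A2 and A3, all 8 were lower, with a median of -0.38 (background 39.0% lower), but scaled on total counts alone GLG1 was not called (-0.0078, edgeR adjusted p = 0.768). T1 and T2 share the same euploid libraries, as do A1, A2 and A3, so the values of populations within a route are not independent.

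**Figure D2:**
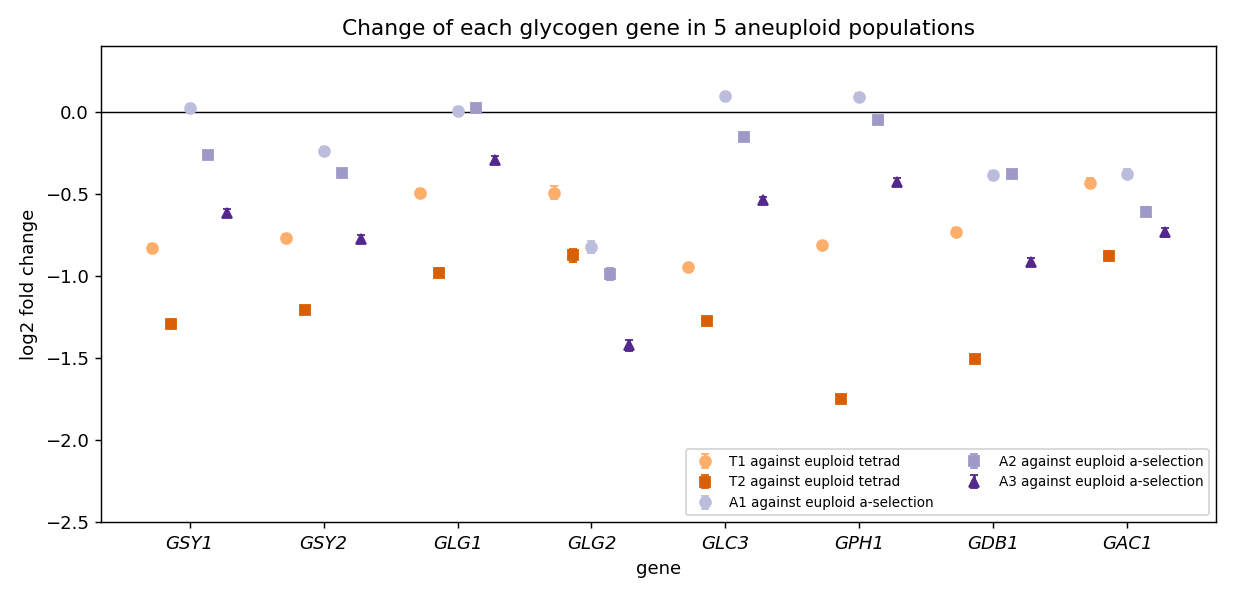
Log2 fold change of each member in T1 and T2 against euploid tetrad and in A1, A2 and A3 against euploid a-selection, with bars of 1 SE from the edgeR fit over all libraries. T2 gave the lowest value for 7 of the 8 members, and GLG2 is the exception, with its lowest value of -1.42 in A3.

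Of the pair that starts the polymer, GLG1 fell more in the tetrad route and GLG2 fell more in the a-selection route. GLG1 (YKR058W, chromosome XI, 552770 to 554620, R64) was at 355, 356 and 355 CPM in T1 and 259, 252 and 252 CPM in T2, against 495, 502 and 508 CPM in euploid tetrad. All tetrad aneuploid libraries lay below all euploid ones, with T2 below T1. It fell by 0.50 on the log2 scale in T1 (± 0.03 SE, edgeR adjusted p = 1.18e-14) and by 0.98 in T2 (adjusted p = 2.00e-20). In the a-selection route GLG1 was at 425, 423 and 427 CPM in A1, 419.9, 438 and 432 in A2 and 338, 351 and 347 in A3, against 432, 409.5 and 429 CPM in euploid a-selection. A1 and A2 overlapped their euploid libraries, at 0.00 ± 0.02 and 0.02 ± 0.02 (adjusted p = 0.885 and 0.434), and A3 was lower, at -0.30 ± 0.03 (adjusted p = 2.12e-10). Tested genes of chromosome XI, where GLG1 lies, had median log2 fold changes of 0.18, 0.26 and 0.24 in A1, A2 and A3, and with these subtracted GLG1 stood at -0.18, -0.23 and -0.53 (edgeR adjusted p = 1.14e-06, 1.82e-08 and 3.54e-15).

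GLG2 (YJL137C, chromosome X, 154985 to 156127, R64) was the member with the lowest level in 6 of the 8 groups per kilobase, and its euploid populations differed the other way round from those of every other member. It was at 74.0, 76.3 and 75.3 CPM in T1 and 56.6, 59.3 and 57.1 CPM in T2, against 103, 106 and 108 CPM in euploid tetrad. Its libraries read 123.3, 128.1 and 125.7 CPM in A1, 108, 117 and 110.5 in A2 and 79.5, 84.3 and 85.0 in A3, against 225, 218 and 225 CPM in euploid a-selection. The euploid a-selection libraries stood above all others, and the highest of the 9 aneuploid libraries of that route was far below them. GLG2 fell in all 5 aneuploid populations, at -0.83 ± 0.04 in population A1, -0.99 ± 0.04 in A2 and -1.42 ± 0.04 in A3 (edgeR adjusted p = 1.32e-15, 4.68e-17 and 2.33e-20), and at -0.49 ± 0.04 in T1 and -0.88 ± 0.04 in T2. Among all tested genes, its mean change over A1, A2 and A3 of -1.08 ± 0.03 lay at the 0.884 percentile from the lowest. Euploid a-selection was above euploid tetrad in GLG2, at 1.07 ± 0.04 (adjusted p = 1.21e-17), while the other 7 members were lower there, from -1.04 to -0.24 (background 35.5% higher and 35.1% lower). In that comparison GLG1 and GAC1, scaled on total counts alone, stood at -0.01 and -0.019 and were no longer called (edgeR adjusted p = 0.749 and 0.586).

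The synthase genes GSY1 and GSY2, which lengthen the chain, stood at nearly the same level per kilobase in the 7 populations and fell together in the tetrad route. GSY1 (YFR015C, chromosome VI, 174265 to 176391) was at 1587, 1605 and 1589 CPM in T1 and 1131, 1150.1 and 1178 CPM in T2, against 2802, 2878 and 2807 CPM in euploid tetrad. GSY2 (YLR258W, chromosome XII, 660716 to 662833) was at 1666, 1662 and 1676 CPM in T1 and 1225, 1229 and 1244 CPM in T2, against 2796, 2892 and 2839 CPM in euploid tetrad. For both genes the 3 groups did not overlap, and T2 was the lowest. In T1 and T2, GSY1 changed by -0.83 ± 0.02 and -1.29 ± 0.02 and GSY2 by -0.77 ± 0.02 and -1.21 ± 0.02 (edgeR, largest adjusted p = 6.41e-19). In the a-selection route GSY1 was at 1949 ± 21.2 CPM in A1, 1599 ± 27.8 in A2 and 1251 ± 11.4 in A3, and 1921 ± 13.1 in euploid a-selection (SD, n = 3 each). GSY2 was at 1868 ± 30 CPM in A1, 1705 ± 23.7 in A2 and 1289 ± 22.0 in A3, and 2207 ± 31.7 in euploid a-selection (SD, n = 3 each). GSY2 fell in all 3 populations, at -0.24 ± 0.02, -0.37 ± 0.02 and -0.78 ± 0.02, whereas GSY1 was called lower in A2 and A3, at -0.26 ± 0.02 and -0.62 ± 0.02, and stood at 0.02 ± 0.02 in A1 (adjusted p = 0.455). Tested genes of chromosome VI, where GSY1 lies, had medians of -0.10, -0.15 and -0.26 in A1, A2 and A3, and with these subtracted GSY1 stood at 0.12 in A1 (adjusted p = 1.24e-04), at -0.12 in A2 and at -0.36 in A3. In T1 and T2 the medians of that chromosome were -0.30 and -0.31, and with them subtracted GSY1 stood at -0.53 and -0.99. The 2 proteins translate to 708 and 705 residues and are identical at 82.0% of aligned residues, but the genes share no run of more than 20 bases.

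GLC3 (YEL011W, chromosome V, 133120 to 135234), the only branching enzyme gene, fell in T1, T2, A2 and A3 and was slightly higher in A1. It was at 1981, 1993 and 2023 CPM in T1 and 1589, 1590.2 and 1596 CPM in T2, against 3819.6, 3876 and 3865 CPM in euploid tetrad. It was at 2495, 2525 and 2500.5 CPM in A1, 2095, 2116 and 2115 in A2 and 1616, 1607 and 1620.5 in A3, against 2359, 2290.0 and 2381 CPM in euploid a-selection. No group overlapped its euploid libraries, and A1 alone stood above them. GLC3 had the largest fall of the members in T1, at -0.95 ± 0.02, and stood at -1.28 ± 0.02 in T2 (edgeR adjusted p = 3.45e-23 and 7.78e-26). In A1, A2 and A3 it stood at 0.10 ± 0.02, -0.15 ± 0.02 and -0.54 ± 0.02 (adjusted p = 2.54e-05, 3.89e-08 and 1.78e-18). With scaling on total counts alone, GLC3 stood at -0.037 in A2 and was no longer called (edgeR adjusted p = 0.0781).

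The breakdown genes GPH1 and GDB1 had the largest falls of all members in T2, and in the a-selection route they parted. GPH1 (YPR160W, chromosome XVI, 861306 to 864014) was at 2544, 2562 and 2612 CPM in T1 and 1325, 1343 and 1368 CPM in T2, against 4471, 4579 and 4526 CPM in euploid tetrad. The T2 libraries lay far below the euploid ones, and T1 lay between them. GPH1 changed by -0.81 ± 0.02 in T1 and by -1.75 ± 0.02 in T2, which is 3.36-fold lower (edgeR adjusted p = 1.22e-19 and 4.59e-26). In the a-selection route GPH1 was at 2344, 2366 and 2311 CPM in A1, 2097, 2113 and 2156 in A2 and 1617, 1653 and 1643 in A3, against 2233, 2117 and 2249.9 CPM in euploid a-selection. A3 lay well below, A2 overlapped the euploid libraries and A1 stood just above them. The values were 0.09 ± 0.02, -0.05 ± 0.02 and -0.43 ± 0.02 (adjusted p = 0.00123, 0.0428 and 3.37e-14). The call in A2 was lost or turned in 9 of 15 alternatives, among them both other filters on low counts and leaving out library 1 or 3 of euploid a-selection (-0.037 and -0.031) or library 1 or 2 of A2 (-0.039 and -0.045), and the call in A1 was lost with the median of chromosome XVI subtracted (0.02, adjusted p = 0.450), where GPH1 in A2 stood at -0.17. GPH1 shares 285 bases with YPR160C-A on the other strand, which had 1 to 15 counts per library.

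GDB1 (YPR184W, chromosome XVI, 902044 to 906654), the longest of these genes, lies on the same chromosome as GPH1. It was at 1491, 1460.0 and 1470.3 CPM in T1 and 851, 865 and 875 CPM in T2, against 2366, 2531 and 2455 CPM in euploid tetrad. It was at 1528, 1489.5 and 1493 CPM in A1, 1486, 1516 and 1533 in A2 and 1040.2, 1040.2 and 1045 in A3, against 1995, 1911 and 1992 CPM in euploid a-selection. Every aneuploid library lay below every euploid library of its route. GDB1 changed by -0.73 ± 0.02 and -1.50 ± 0.02 in the tetrad populations T1 and T2, and by -0.39 ± 0.02 in A1, -0.38 ± 0.02 in A2 and -0.92 ± 0.02 in A3 (edgeR, largest adjusted p = 2.01e-12).

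GAC1 (YOR178C, chromosome XV, 667860 to 670241), which encodes the subunit that brings the phosphatase Glc7 to glycogen synthase, fell in all 5 aneuploid populations. It was at 383, 374 and 391 CPM in T1 and 280.3, 281 and 282 CPM in T2, against 499.9, 526 and 522 CPM in euploid tetrad. It was at 338, 339.8 and 322 CPM in A1, 277, 286 and 289.7 in A2 and 259.7, 254 and 266 in A3, against 435, 422 and 442 CPM in euploid a-selection. No aneuploid library overlapped the euploid libraries of its route. The changes were -0.43 ± 0.03 and -0.88 ± 0.03 in the tetrad populations T1 and T2, and -0.38 ± 0.03 in A1, -0.61 ± 0.03 in A2 and -0.74 ± 0.03 in A3 (edgeR, largest adjusted p = 5.58e-11). Tested genes of chromosome XV, where GAC1 lies, had a median of -0.25 in T1, and with it subtracted GAC1 stood at -0.19 there (edgeR adjusted p = 3.48e-06).

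Both euploid populations stood far above the haploid control in every member, and the distance was largest for the breakdown and phosphatase genes. GPH1 had 23.1 and 24.1 CPM in the 2 haploid libraries, so that it was 192-fold higher in euploid tetrad and 93.2-fold higher in euploid a-selection (log2 fold changes 7.58 ± 0.04 and 6.54 ± 0.04, edgeR adjusted p = 4.23e-34 and 4.68e-33). GAC1, at 5.76 and 4.65 CPM in the haploid control, was 99.3-fold and 83.3-fold higher, and GDB1, at 29.4 and 31.5 CPM, was 80.5-fold and 64.5-fold higher. The synthases differed from each other here: GSY1 was 3.95 ± 0.03 and 3.39 ± 0.03 above the haploid control, and GSY2 was 5.18 ± 0.03 and 4.82 ± 0.03 above it. GLC3 was higher by 5.64 ± 0.03 and 4.92 ± 0.03, GLG1 by 3.33 ± 0.04 and 3.09 ± 0.03, and GLG2 by 2.47 ± 0.05 and 3.54 ± 0.05. All 8 members were called higher in both comparisons, where 47.1% and 45.0% of all genes were, and the members' medians were 5.41 and 4.87 beside 0.09 and 0.04 for all genes. The haploid control also differed from both in LEU2, as given above, and in 14 ribosome biogenesis genes (summed 5703 CPM against 46.6 and 147). Differences of strain, growth state and origin cannot be told apart in these comparisons. The 5 aneuploid populations also stood above the haploid control: the lowest aneuploid population exceeded it by 1.59 in GLG2 and by 5.83 in GPH1, the members with the smallest and largest gap (edgeR adjusted p = 1.95e-18 and 7.67e-32).

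The aneuploid populations differed among themselves in nearly every member. T2 was below T1 in all 8, from -0.94 ± 0.02 to -0.33 ± 0.02 with a median of -0.46 (background 33.2% lower). A3 was below A1 in all 8 (median -0.53, background 32.6% lower) and below A2 in all 8 (median -0.38, background 30.2% lower). A1 and A2 were closer: 6 members were higher in A1, with GSY1 the most at 0.29 ± 0.02 (background 15.4% higher), and GLG1 and GDB1 stood at -0.02 ± 0.02 and -0.01 ± 0.02 (edgeR adjusted p = 0.629 and 0.843). When the 8 groups were put in order of level, 46 of 56 pairs of neighbours differed, where from 34.2% (A1 and A2) to 86.3% (T2 and the haploid control) of all genes differed in such pairs. The 10 that did not were A2 and T1 in GSY1 and GSY2, A1 and euploid a-selection in GSY1 and GLG1, T1 and A3 as well as A2 and A1 in GLG1, A3 and T2 in GLC3, A1 and T1 as well as A2 and A1 in GDB1, and A2 and T2 in GAC1. Of all tested genes, 62.3% differed between A2 and T1, 72.4% between A1 and euploid a-selection, 71.2% between A3 and T1, 61.8% between A3 and T2, 65.9% between A1 and T1 and 75.1% between A2 and T2. The haploid control was the lowest group for all 8 members, and T2 the next lowest for all but GAC1, where A3 was. Euploid tetrad was the highest for all but GLG2.

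The fall in the tetrad aneuploids exceeded that in the a-selection aneuploids for 7 members, and GLG2 went the other way. The difference between routes, as the tetrad change minus the a-selection change, was -1.15 ± 0.03 for GPH1, -0.91 ± 0.02 for GLC3 and -0.77 ± 0.03 for GSY1 (edgeR interaction contrast, adjusted p = 1.44e-20, 6.66e-21 and 9.76e-17). It was -0.65 ± 0.03 for GLG1, -0.56 ± 0.03 for GDB1 and -0.52 ± 0.03 for GSY2, and 0.40 ± 0.04 for GLG2 (largest adjusted p = 2.66e-08). GAC1 differed by -0.08 ± 0.03 (adjusted p = 0.0407), a call that was lost or turned in 12 of 30 alternatives, among them RLE scaling, DESeq2 and leaving out library 2 or 3 of euploid tetrad, 2 of T1, 1 of T2, 2 of euploid a-selection or 3 of A2 (-0.079 to -0.062). Scaled on total counts alone, 6 were lower and 2 higher. With TMM, 7 members were called lower and 1 higher (background 38.6% and 33.1%). The 2 euploid populations differ in these genes themselves, as given for each above, and each route has only 1 of them, so a difference between routes and a difference between those 2 populations cannot be told apart.

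Ratios between members within a library do not depend on scaling, and all 4 that were taken differed between aneuploid and euploid libraries of the a-selection route. Per kilobase, GLG1 was at 2.09 ± 0.0469 times GLG2 in A1, 2.37 ± 0.0577 in A2 and 2.57 ± 0.0525 in A3, and 1.17 ± 0.0141 in euploid a-selection (SD, n = 3 each). All 9 aneuploid libraries lay above the 3 euploid ones, a log2 difference of 0.99 (exact two-sided permutation test, p = 0.00909, adjusted p = 0.0182 over 8 tests). In the tetrad route this ratio was 2.92 ± 0.0401 in T1, 2.73 ± 0.0995 in T2 and 2.93 ± 0.0369 in euploid tetrad. The T2 libraries lay below those of T1 and euploid tetrad, while T1 overlapped the euploid libraries. The 6 aneuploid libraries together were not called different (exact permutation adjusted p = 0.167). GSY2 was at 1.05 ± 0.0102 times GSY1 in T1, 1.07 ± 0.0136 in T2 and 1.01 ± 0.00660 in euploid tetrad. In the a-selection route it was at 0.963 ± 0.00539 in A1, 1.07 ± 0.00929 in A2, 1.03 ± 0.0255 in A3 and 1.15 ± 0.0126 in euploid a-selection. In the haploid control it was 0.432 ± 0.0540 (SD, n = 2), so GSY1 was the more abundant synthase RNA there. The ratio of GSY2 to GSY1 was thus higher in the tetrad aneuploids and lower in the a-selection aneuploids than in their euploid population (exact permutation adjusted p = 0.0317 and 0.0182). The tetrad direction turned with chromosome medians subtracted: GSY2 then stood at -0.83 in T1 and -1.29 in T2, below GSY1 at -0.53 and -0.99. The a-selection direction stayed, with GSY2 at -0.17, -0.27 and -0.69 in A1, A2 and A3, below GSY1 at 0.12, -0.12 and -0.36. The smallest p the permutation tests allow is 0.0238 for the tetrad route and 0.00909 for a-selection, and with only 2 of the euploid tetrad libraries it is 0.0714, so that no call could pass there. Libraries of a population share its source, and each route has only 1 euploid population. The p-values of all these ratio tests therefore compare libraries, and do not test aneuploid against euploid populations.

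The balance of phosphorylase to synthase RNA was higher in the a-selection aneuploids and was not called different in the tetrad aneuploids. GPH1 over the sum of GSY1 and GSY2 was 0.618 ± 0.00776 in T1, 0.442 ± 0.00119 in T2 and 0.625 ± 0.00318 in euploid tetrad. T2 lay far below and T1 overlapped the euploid libraries (exact permutation adjusted p = 0.0816). In the a-selection route it was 0.480 ± 0.00585 in A1, 0.503 ± 0.00251 in A2, 0.505 ± 0.00719 in A3 and 0.417 ± 0.00972 in euploid a-selection, with all 9 aneuploid libraries above the euploid ones (exact permutation adjusted p = 0.0182). It was 0.0709 ± 8.97e-05 in the haploid control. GDB1 over GPH1 was higher in the tetrad aneuploids, by 0.16 on the log2 scale, and lower in the a-selection aneuploids, with a log2 difference of -0.43 (exact permutation adjusted p = 0.0317 and 0.0182).

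**Figure D3:**
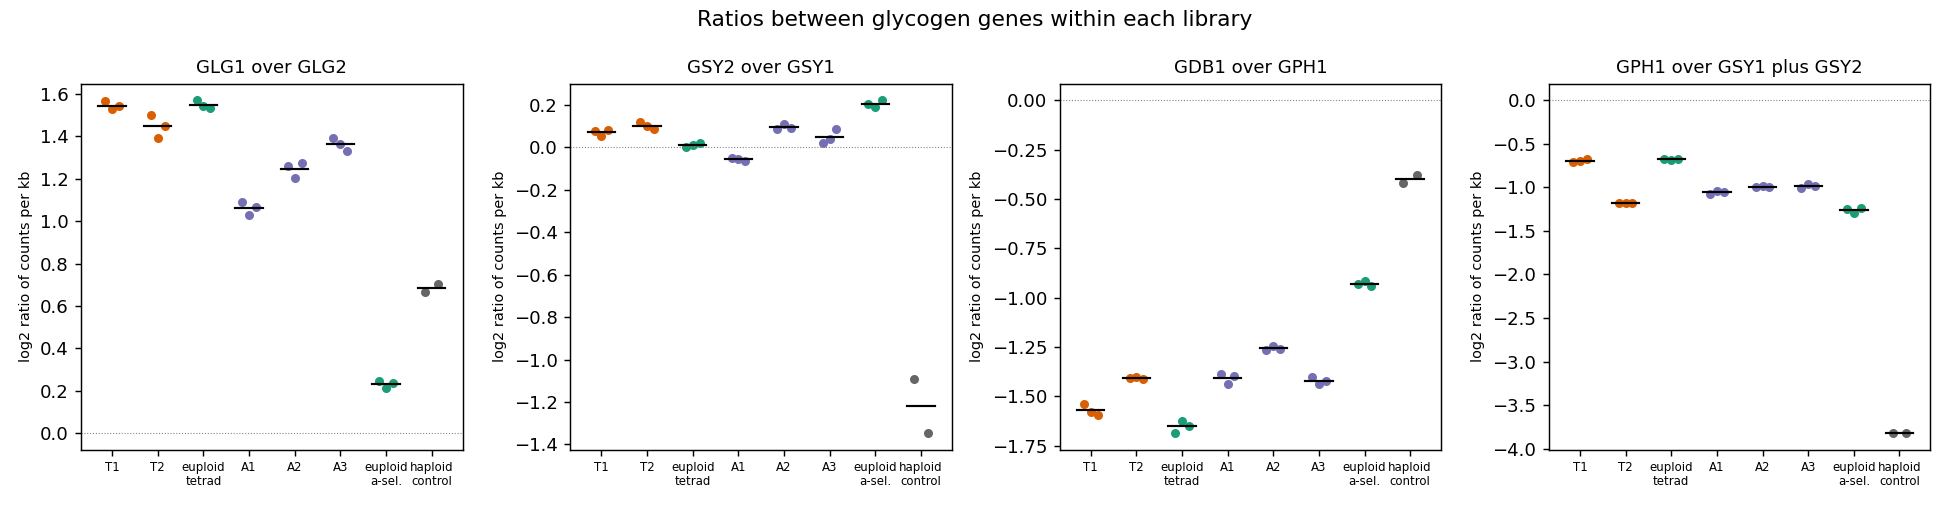
Log2 ratios of counts per kilobase between members within each library, with 1 point per library and a line at the mean of each group. GLG1 over GLG2 lies above 1 on the log2 scale in A1, A2 and A3 and at 0.23 in euploid a-selection, and GPH1 over the 2 synthase genes lies lowest in the haploid control, at -3.82.

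When each of the 7 populations counted as 1 unit, with route as a term, all 8 fold changes were negative but most did not pass. GLG2 (-0.87 ± 0.20 SE, edgeR adjusted p = 0.0361) and GAC1 (-0.58 ± 0.17, adjusted p = 0.0486) were called lower in the aneuploid populations, 2 of 8 where 11.0% of all genes were. With 1 population left out, GLG2 stood at -0.98 to -0.77 and GAC1 at -0.68 to -0.51. Fits without T1, T2, A2 or A3 called neither, and called only 3, 3, 0 and 1 of all 6111 genes, while the fit without A1 called 21.4% of all genes and, of the members, GLG2. In the fit of all 7 populations the other members stood between -0.78 ± 0.28 for GDB1 and -0.38 ± 0.21 for GLG1 (adjusted p = 0.0781 and 0.198). In the authors' deposited table of aneuploid against euploid samples, all 8 members had a negative log2 fold change, from -0.85 for GLG2 to -0.37 for GLG1. None of the 8 had an adjusted p under 0.05 in the authors' deposited table (the lowest was 0.200, for GLG2), where 3.51% of its 6316 genes did, and 6 of the 8 had an unadjusted p under 0.05 there, as did 49.1% of its genes.

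Of 30 other genes that feed or control glycogen synthesis, more fell than rose in both routes. In the mean of T1 and T2, 23 fell and 4 rose, with a median of -0.40, and in the mean of A1, A2 and A3, 19 fell and 7 rose, with a median of -0.24. Of all tested genes, 44.8% and 39.0% were called lower in these contrasts, and 5179 and 4813 of the 6111 were called in either direction. Scaling on total counts alone shifts all genes up, to medians of 0.28 in the tetrad mean and 0.08 in the a-selection mean. With it, 15 of the 30 were lower and 11 higher in the tetrad mean, and 19 lower and 10 higher in the a-selection mean. For substrate supply, UGP1, which makes UDP-glucose, fell in both routes, at -1.19 ± 0.01 and -0.38 ± 0.01 (tetrad and a-selection, ± SE). PGM2, the main phosphoglucomutase, fell in the tetrad aneuploids (-1.04 ± 0.02) and was slightly higher in the a-selection aneuploids (0.07 ± 0.02), while the minor form PGM1 rose in both (0.79 ± 0.03 and 0.82 ± 0.03). Among the subunits that may target Glc7 to glycogen, PIG2 fell in the tetrad aneuploids (-1.88 ± 0.02) and rose in the a-selection aneuploids (0.31 ± 0.02), a difference between routes of -2.19 ± 0.03 (edgeR interaction contrast, adjusted p = 7.50e-25). PIG1 fell in both, at -0.64 ± 0.04 and -0.47 ± 0.03.

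The kinase genes did not move as 1 block. TPK3, a catalytic subunit of protein kinase A, rose in both routes (1.63 ± 0.08 and 1.37 ± 0.07), and TPK2, another catalytic subunit, fell in both (-0.79 ± 0.02 and -0.50 ± 0.02). PHO85, the cyclin-dependent kinase that phosphorylates glycogen synthase, fell by 0.76 and 0.35 on the log2 scale, and its cyclin gene PCL7 fell by 0.15 and 0.26. SIP2 and SIP1, subunits of the Snf1 kinase of glucose limitation, stood at -1.0 ± 0.03 and -0.54 ± 0.03 in tetrad and at -0.30 ± 0.03 and -0.27 ± 0.03 in a-selection. The PAS kinase gene PSK1 fell (-0.58 ± 0.03 and -0.39 ± 0.02) and its relative PSK2 rose (0.38 ± 0.03 and 0.35 ± 0.03). GIS1 and YAK1, a transcription factor and a kinase of nutrient stress, stood at -0.47 ± 0.02 and -0.32 ± 0.02 in tetrad and at -0.55 ± 0.02 and -0.54 ± 0.02 in a-selection. With total counts alone, PCL7 and YAK1 stood at 0.18 and 0.01 in tetrad, no longer lower. SGA1, the sporulation glucoamylase, fell by 0.94 and 0.75 (edgeR, largest adjusted p of the genes named in this paragraph 3.97e-05).

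Ribosome biogenesis genes, whose level follows growth, were higher in the aneuploid populations than in their euploid population. The summed level of 14 of them was 536 ± 11.8 CPM in T1, 1699 ± 17.9 in T2 and 46.6 ± 2.67 in euploid tetrad (SD, n = 3 each). It was 515 ± 13.0 CPM in A1, 616 ± 8.01 in A2, 1789 ± 20.8 in A3 and 147 ± 0.814 in euploid a-selection (SD, n = 3 each), and 5703 ± 46.7 CPM in the haploid control (SD, n = 2). All 14 were called higher in each of the 5 aneuploid populations than in its euploid population, and lower in both euploid populations than in the haploid control. Among the 6111 tested genes, 4959, 5187, 4423, 4413 and 4882 were called in either direction in T1, T2, A1, A2 and A3. Against the haploid control, 5540 were called in either direction in euploid tetrad and 5467 in euploid a-selection. T2 and A3, the aneuploid populations with the lowest glycogen share, had the highest summed level, but A2 was above T1 and A3 above T2 in both measures. The part of growth state in the members' changes was not tested.

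**Figure D4:**
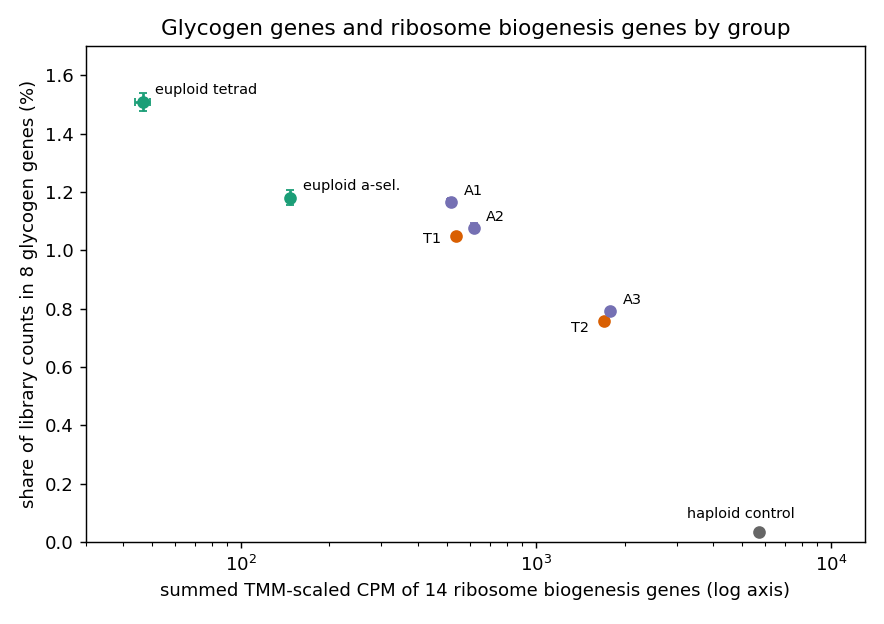
Share of all counts held by the 8 members against the summed TMM-scaled CPM of 14 ribosome biogenesis genes (log axis), as mean and SD of the libraries of each group. Euploid tetrad lies at the top left, with 1.51% and 46.6 CPM, and the haploid control at the bottom right, with 0.0350% and 5703 CPM.

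The members' common pattern was shared closely by other genes. Over the 23 libraries, GDB1 and GSY2 followed the mean of all 8 members' standardized log2 CPM, which includes them, most closely (Pearson r = 0.998 each) and GLG2 least (0.882). Of 5336 other genes with an average log2 CPM of 3 or more, the 5 most like that mean were HSP12 (r = 0.998), YMR206W (0.998), DCS2 (0.998), UIP4 (0.997) and PXA2 (0.997). Without the 2 haploid libraries these values were 0.974, 0.986, 0.975, 0.956 and 0.988, and GLG2 stood at 0.665. HSP12, which encodes a small stress protein of membranes, averaged 7309.6 CPM over T1 libraries, 3277 over T2 libraries and 14569 over euploid tetrad libraries, and 34.4 CPM in the haploid control. PXA2 encodes a subunit of the peroxisomal fatty acid transporter. The points share libraries and replicates of 8 groups, so these correlations describe the data and carry no test.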

How the data were processed

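The authors deposited unnormalized gene counts in 1 table, whose column names were matched to the sample titles. The submitters' processing notes list the build R64 and, with no role stated, HTSeq 0.6.1p1, HISAT2 2.0.5 and DESeq2 1.14.1. No source used here says whether counting used strand. For each gene the authors' deposited comparison table holds the mean normalized signal, the log2 fold change and its SE, the test score, the p-value and the adjusted p-value. It does not name the samples compared.

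The quasi-likelihood test of edgeR 4.0.16 (R 4.3.3) was run on counts filtered with filterByExpr and TMM-scaled, with 1 coefficient for each of 8 groups and 15 residual degrees of freedom. Benjamini-Hochberg adjusted p-values run over all 6111 tested genes of a contrast and were called at 0.05. SEs are those implied by the F statistic. The fit with the population as the unit summed libraries and had 4 residual degrees of freedom. All 8 members, PGM1, PGM2 and UGP1, up to 2 genes of each other role group with the highest absolute change called in both routes, and the 5 genes most like the members were named. The members and lists were chosen with earlier results of these data known. Replicate libraries differed by more than sampling noise in every pair (chi-square test over genes), and each was counted. Such a difference does not show that they came from separate cultures. The steps were tested on simulated data in which most genes kept the same mean in all groups. In the real data far more genes differed, so the simulation did not check the scaling in that setting. Genes, coordinates and upstream windows came from the R64 reference, whose starts matched those of the authors' table for the members. Alternatives were other scalings and filters, DESeq2 1.42.0, a replicate block, the compared groups alone, chromosome medians subtracted, and each library or population left out. Scalings of the pathway and trehalose lists were added after seeing the data.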

Additional observations from a re-analysis of the deposited data

Results flagged for a closer look

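By a test of the difference itself (edgeR interaction contrast), aneuploid and euploid libraries differed to an unlike extent in the tetrad and a-selection routes in each member. The adjusted p-values were under 0.05 and cover only the scatter among libraries. In this contrast 38.6% of all tested genes were called lower and 33.1% higher. As tetrad change minus a-selection change on the log2 scale, GSY1 stood at -0.77, GSY2 at -0.52, GLG1 at -0.65, GLC3 at -0.91, GPH1 at -1.15, GDB1 at -0.56 and GAC1 at -0.080. The call of GAC1 was lost or turned in 12 of 30 alternatives. GLG2 stood at 0.40, the only positive value. Each route has only 1 euploid population, so a difference between routes and a difference between those 2 populations cannot be told apart. No group had enough libraries for a check of single libraries that stand apart.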

How the results depend on the processing

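Of 2686 values recomputed under 39 alternatives, 2606 kept their direction and their side of the threshold (or, for a count, stayed within 1.5 times). Scaling on total counts alone moved the median of all genes by more than 0.1 in 9 of 15 contrasts, for example to 0.28 for the tetrad aneuploids against -0.05 with TMM. Under it, 4 members were higher in A1 and 2 in A2 against euploid a-selection, and 2 were higher in the difference between routes. GPH1 in A2 then stood at 0.0634 and GAC1 in the difference between routes at 0.17. With chromosome medians subtracted, GLG1 turned to -0.18 in A1 and -0.23 in A2, GAC1 to 0.0081 between routes, and GLG1 and GDB1 to 0.0578 and 0.0318 in A1 against A2. The uncalled GDB1 in A1 against A2 turned to 0.00326 with RLE factors and 0.00353 with DESeq2. Leaving out each library gave ranges of -0.0216 to 0.00262 for it and, for the uncalled GLG1, of -0.0189 to 0.0225 in A1 and -0.0012 to 0.0448 in A2, the sign turning without library 3 of A2 for GDB1 and without library 2 of euploid a-selection for GLG1. With the population as the unit, members called lower numbered 1 with upper-quartile factors, 0 with total counts, 1 with no route term, 0 without T1, T2, A2 or A3 (fits that called at most 3 of all genes) and 1 without A1 (21.4% of all genes). In the order of levels, 6 of 8 places were kept by GSY1, GLC3 and GDB1 with RLE factors, by GLC3 with upper-quartile factors and by GSY2, GLC3, GPH1 and GAC1 with total counts, and 5 by GLG1 with total counts. Leaving out each library gave ranges of 0.0676 to 0.0807 for GSY2 over GSY1, 0.146 to 0.185 for GDB1 over GPH1 and -0.312 to -0.210 for GPH1 over the synthases in the tetrad route. With 2 euploid libraries left, the smallest p of the exact permutation test is 0.0714, so the first pair could not be called whatever their values (adjusted p = 0.0952 each). Without library 3 of T1 the last was called (exact permutation adjusted p = 0.0408). Apart from this limit, the cause of these changes was not tested. With the replicate block, the members called were the same in number in each contrast, for example 8 lower in T1. Libraries with the same number deviated together (correlation over 0.1) in 9 of 77 pairs. Libraries with unlike numbers were not compared, so this check cannot say whether the number pairs samples. Depth was no limit for the members, whose lowest count was 67.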

Other observations

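Trehalose, the other storage carbohydrate of yeast, is made from the same UDP-glucose, and its genes are described here beside the glycogen genes. Of 7 trehalose genes, 6 fell and 1 rose in the mean of T1 and T2, with a median log2 fold change of -0.44, where the 8 glycogen genes had -1.02. In the mean of A1, A2 and A3, 6 fell and 1 rose, with a median of -0.31 beside -0.38 for the glycogen genes. Of all tested genes, 44.8% were called lower in the tetrad mean and 39.0% in the a-selection mean. The trehalase gene ATH1 had the largest fall, at -1.35 ± 0.02 and -0.78 ± 0.02 (SE, edgeR adjusted p = 3.99e-24 and 8.47e-20). TSL1, a regulatory subunit of trehalose synthase, was slightly higher in the tetrad aneuploids (0.08 ± 0.02, adjusted p = 0.00287), and TPS3, another such subunit, was lower in them (-0.30 ± 0.02) and higher in the a-selection aneuploids (0.12 ± 0.02). Scaled on total counts alone, TPS3 stood at 0.03 in the tetrad mean, no longer lower, and the list had 4 lower and 1 higher there. Both euploid populations stood above the haploid control in all 7 genes, with medians of 2.78 and 2.82 where the glycogen genes had 5.41 and 4.87. In these comparisons 47.1% and 45.0% of all tested genes were called higher. A difference between the 2 lists was not tested.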
